A study of Rattus norvegicus with 20 samples.

Results

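Rat bone marrow mesenchymal stromal cells (MSCs) kept on a 100 kPa stiff silicone surface were compared between 3 weeks of culture (3w100) and 5 weeks (5w100). The comparison used 5 of the 20 bulk RNA-seq libraries of the series, which were chosen by their labels alone: 3 libraries of passage 3 and 2 libraries of passage 5, all grown on 100 kPa from isolation on. The MSCs were flushed from the long bones of female Wistar rats, plated directly on the test surface, enriched with magnetic beads for CD54 and CD90 after the first expansion passage, and moved every week to a fresh gelatin-coated plate, so that weeks in culture and passage number cannot be told apart. The study describes its replicates as MSCs of different rats, and the labels do not say whether 2 libraries with one number came from one rat. Other groups are used only where they show how the stiff change from 3 to 5 weeks compares. These are 3 libraries after 1 week on 100 kPa (1w100), and 3 each after 1 and 3 weeks on a 2 kPa soft surface (1w2, 3w2). A further 2 had 5 weeks on 2 kPa (5w2). Another 2 came from cells that had 3 weeks on 100 kPa and then 2 weeks on 2 kPa (3w100→2w2). The last 2 libraries came from cells that had 3 weeks on 2 kPa and then 2 weeks on 100 kPa (3w2→2w100). That group was not compared with the stiff ones, but it entered the fit of all 20 libraries and the plot of single genes by group.

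MSCs are the stromal progenitors of bone marrow, studied for their capacity to help tissue repair. On a surface as stiff as scar, MSCs are known to turn into myofibroblasts, contractile cells that build α-smooth muscle actin into stress fibers, pull on their surroundings and deposit collagen. Cells of this kind can keep part of that state after the surface changes, which is called mechanical memory. The comparison addresses what the last 2 weeks of stiff culture add to a transcriptome that has already been stiff for 3 weeks.

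The 5 libraries held between 17851670 and 24139128 counts on genes, with a median of 18843735, within the range of 16127907 to 24139128 of all 20. Between 15754 and 16643 genes had at least 1 count in a 3w100 or 5w100 library. Genes with enough counts for a test by edgeR's quasi-likelihood method numbered 14034, and levels are given as CPM, the counts of a gene scaled to a common library total with TMM factors. The genes carry Ensembl identifiers that none of the sources used here pairs with gene symbols. For that reason no marker of MSCs, myofibroblasts or other marrow cells was checked, the cell type rests on the labels, and genes are given by identifier with no statement on their function.

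In the main fit by edgeR no gene passed an adjusted p of 0.05 between 3w100 and 5w100, while DESeq2 called a few. By edgeR with Benjamini-Hochberg adjustment, 0 of 14034 genes (0%) were called, and the lowest adjusted p was 0.172. At an unadjusted p below 0.05 there were 889 genes (6.33%), of which 418 were higher at 5 weeks (2.98%) and 471 were lower (3.36%). DESeq2, the count test that the study used, called 14 genes higher and 3 lower when fitted on all 8 groups. That was 0.293% of the 5795 genes for which it gave an adjusted p. Fitted on only the 5 libraries it called 25 higher and 18 lower, or 0.306% of 14060, and 7 genes were called in both fits. The log2 fold changes of the 14034 genes had a median of -0.01, quartiles of -0.18 and 0.14, and an SD of 0.58, and 48.5% of them were above 0. In 1451 genes (10.3%) both 5w100 libraries lay above all 3w100 libraries, and in 1503 genes (10.7%) both lay below. Of these non-overlapping genes, 373 of the higher and 418 of the lower ones also had an unadjusted p below 0.05. With so few libraries, some genes separate in this way even where the groups do not differ. The counts of non-overlapping genes alone therefore do not show a change. Of the variance among the 5 libraries, 25.04% lay between 3w100 and 5w100, where no group structure would give 25%. The 25% takes the libraries as independent, which the labels do not settle for libraries that share a replicate number.

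The 2 weeks on stiff after week 3 came with fewer called genes than the 2 weeks before it. From 1w100 to 3w100 the same test gave 1180 called genes (8.41%), of which 540 rose and 640 fell, and the SD of the log2 fold changes was 1.01. The first interval was fitted on 3 libraries against 3 and the second on 3 against 2, which widens the error of the second. The difference between the changes of both intervals was tested in the same model, in a contrast that was added after the values were seen, and edgeR called 0 genes in it, with 709 genes (5.05%) at an unadjusted p below 0.05, a lowest adjusted p of 0.0555, and 16 genes called by DESeq2.

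Over all tested genes, the distances between 3w100 and 5w100 libraries lay within the range of the distances inside the 2 groups. Distances were taken over the log2 CPM of all 14034 genes. The 3 libraries of 3w100 were 54.2, 65.7 and 71.3 apart. The 2 libraries of 5w100 were 92.4 apart, which was more than any of the 6 distances between a 3w100 and a 5w100 library. Those 6 distances ran from 56.8, between replicate 2 of both groups, to 89.8, between 3w100 replicate 3 and 5w100 replicate 1, with a mean of 75.6. Same-numbered libraries among them were 67.6 and 56.8 apart. Those with different numbers were 73.2 to 89.8 apart, above every distance within 3w100. Libraries of one group always differ in number, so the mean of 75.6 is not a like measure beside the distances within a group. The 9 distances from 1w100 to 3w100 libraries were 92.4 to 122.2, and the 6 from 1w100 to 5w100 were 123.5 to 143.9, so 5w100 lay farther from the first week than 3w100 did on average, at 135.5 against 109.4. Over the 500 most variable genes, the 2 libraries of 5w100 were 43.1 apart and the distances from 3w100 to 5w100 ran from 21.7 to 49.5, so that on this gene set the longest distance was between the groups.

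**Figure D1:**
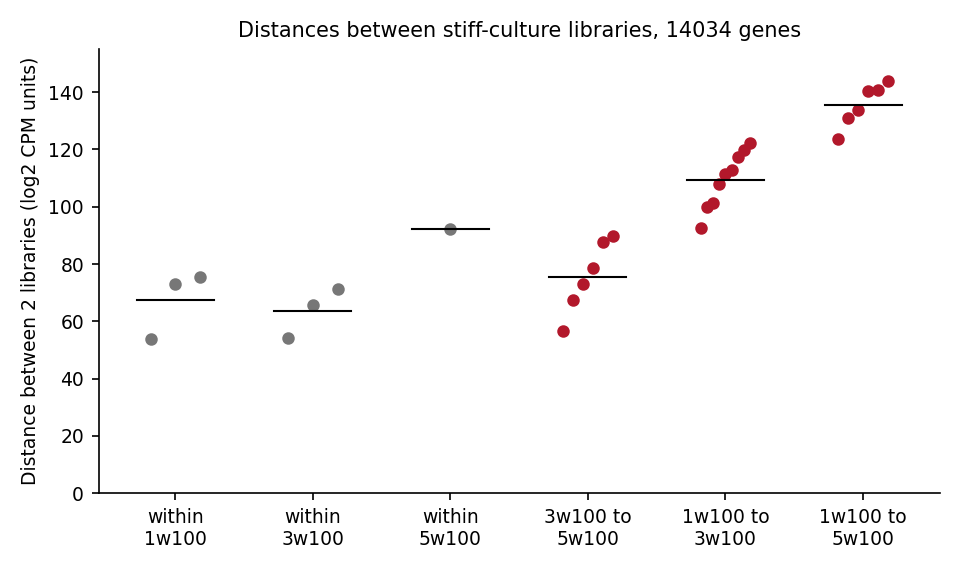
Euclidean distances between pairs of stiff-culture libraries over the log2 CPM of 14034 genes (vertical axis); each point is 1 pair, grey within a group and red between groups, and the lines are means. The distances between 3w100 and 5w100, 56.8 to 89.8, lie below the 92.4 between the 2 libraries of 5w100, and those to 1w100 reach 143.9.

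Libraries of a group differed by more than counting error, with a chi-square per degree of freedom between 2 libraries of 18.6 to 51.7 in 3w100 and of 71.5 in 5w100, where counting error alone would give about 1.

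How large a change could be seen depended on the level of the gene. In the 1751 genes with a mean above 100 CPM the median standard error of the log2 fold change was 0.15, and it was also 0.15 in the 6885 genes between 10 and 100 CPM. It was 0.34 in the 3602 genes between 1 and 10 CPM and 0.73 in the 1796 genes below 1 CPM. The direction of the genes at an unadjusted p below 0.05 also changed with level. Above 100 CPM, 101 such genes were higher at 5 weeks and 54 lower, and between 10 and 100 CPM there were 221 and 190. Between 1 and 10 CPM, 62 were higher and 163 lower, and below 1 CPM 34 were higher and 64 lower. Of the 251 genes fitted above a log2 fold change of 1 and the 556 fitted below -1, the genes over 100 CPM made up 9 and 3.

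**Figure D2:**
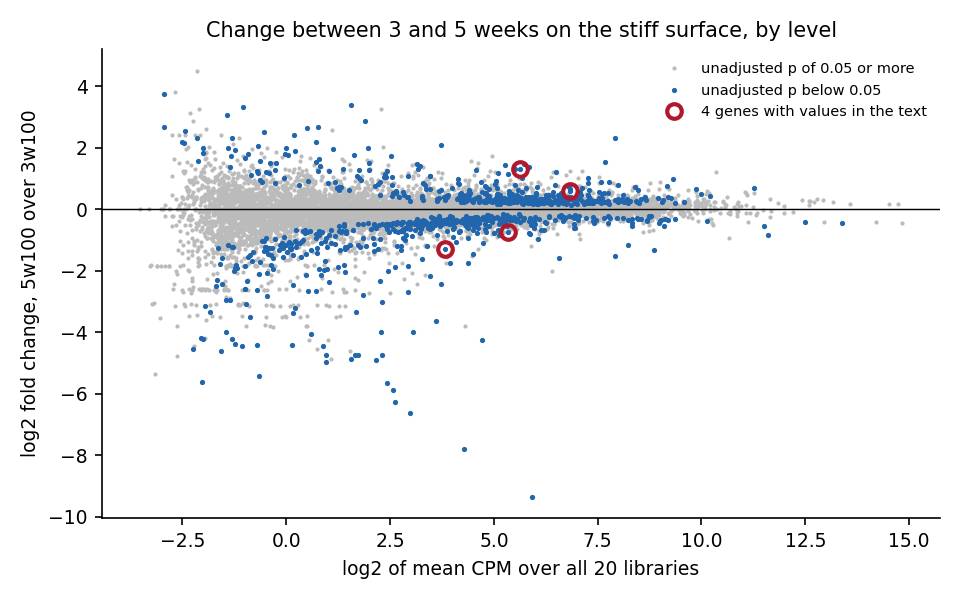
Fitted log2 fold change of 5w100 over 3w100 (vertical axis) against the log2 of the mean CPM over all 20 libraries (horizontal axis), 1 point per gene; blue points have an unadjusted p below 0.05 and red circles mark the 4 genes named in the text. The spread narrows with level, from an SD of 1.10 below 1 CPM to 0.24 above 100 CPM, and of the 556 genes below -1, 334 have a mean under 1 CPM and 193 one of 1 to 10 CPM.

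Since edgeR called no gene, the 4 identifiers given here are those with the lowest unadjusted p, 2 in each direction, among genes with a mean of at least 5 CPM in one group whose 3w100 and 5w100 libraries do not overlap. Their values describe the comparison that chose them. ENSRNOG00000067317 had 99.6, 109.0 and 108.3 CPM in 3w100 and 152.1 and 164.5 CPM in 5w100. It was higher in both 5-week libraries with a log2 fold change of 0.58 ± 0.10 (SE) and an adjusted p of 0.195 by edgeR. In 1w100 it had 65.5 to 73.5 CPM, so its level was higher in each later stiff group. On soft it was also higher at 5 weeks, at 134.3 and 148.4 CPM in 5w2. The log2 fold change over 3w2 was 0.27 ± 0.10 (SE), not called by edgeR (adjusted p 0.469).

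ENSRNOG00000009033 had 62.6, 41.3 and 39.5 CPM in 3w100 and 116.9 and 117.1 CPM in 5w100. The 5-week libraries nearly coincided, while 3w100 replicate 1 lay above the other two. The log2 fold change was 1.29 ± 0.24 (SE), or 2.45-fold, with an adjusted p of 0.217 by edgeR. In 3w100→2w2, whose cells had spent the same last 2 weeks on the soft surface, it had 86.2 and 114.7 CPM, against 48.9 and 31.1 CPM in 5w2.

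ENSRNOG00000032150 had 11.7, 10.7 and 15.4 CPM in 3w100 and 5.21 and 4.98 CPM in 5w100. Both 5-week libraries lay below every 3-week library, at a log2 fold change of -1.31 ± 0.22 (SE) and an adjusted p of 0.172 by edgeR, the lowest of the comparison. Its level was 21.3 to 25.1 CPM in 1w100. The change from 1w100 to 3w100 was called by edgeR (log2 fold change -0.89 ± 0.18 SE, adjusted p 0.00619). On soft it was also lower at 5 weeks, at 10.9 and 6.66 CPM in 5w2. The log2 fold change over 3w2 was -0.90 ± 0.21 (SE), not called by edgeR (adjusted p 0.288).

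ENSRNOG00000033697 had 42.9, 41.6 and 43.9 CPM in 3w100 and 22.3 and 29.0 CPM in 5w100. Its 3-week libraries were close together and the 5-week libraries lay below all of them, at a log2 fold change of -0.74 ± 0.14 (SE) and an adjusted p of 0.217 by edgeR. It was the only one of the 4 genes with no called change in the first interval: 1w100 held 43.3 to 48.0 CPM, and the log2 fold change from 1w100 to 3w100 was -0.10 ± 0.12 (SE) with an adjusted p of 0.667 by edgeR. In 5w2 it had 38.2 and 39.5 CPM, and in 3w100→2w2 it had 27.3 and 26.2 CPM.

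**Figure D3:**
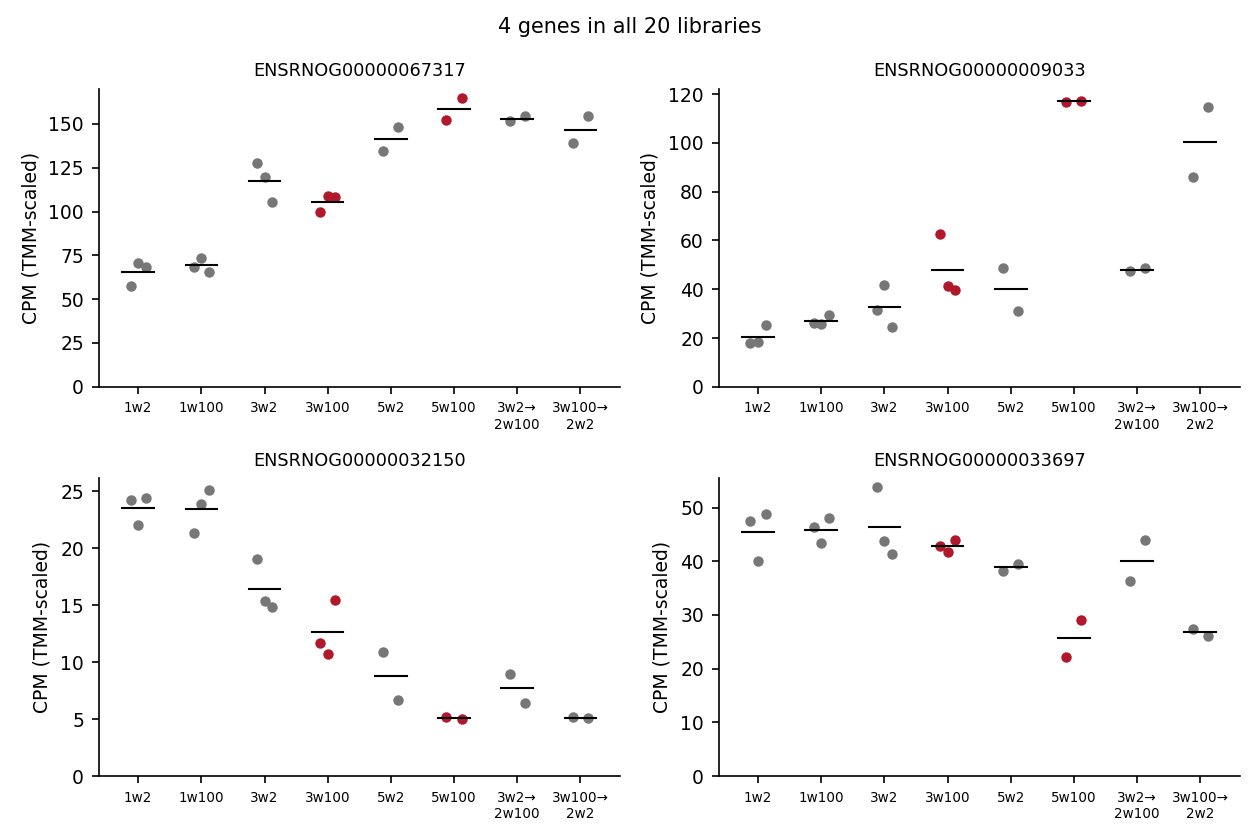
TMM-scaled CPM (vertical axes, starting at 0) of 4 genes in all 20 libraries by group; points are libraries, red for 3w100 and 5w100, and lines are group means. The 5w100 libraries lie outside the range of 3w100 in each panel, as the choice of these genes required, and the 3w100→2w2 libraries lie on the same side as 5w100.

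Of these 4 genes DESeq2 on all 8 groups called 3, with adjusted p-values of 0.000541 for ENSRNOG00000067317, 0.000973 for ENSRNOG00000009033 and 0.00106 for ENSRNOG00000033697, and it gave no adjusted p for ENSRNOG00000032150. On only the 5 libraries DESeq2 called all 4, ENSRNOG00000032150 with an adjusted p of 0.00161. All 14 genes that the DESeq2 fit on 8 groups called higher had 5w100 libraries above every 3w100 library and an unadjusted edgeR p below 0.05, while their adjusted edgeR p ran from 0.195 to 0.667. Their mean level in 3w100 lay between 27.8 and 624 CPM, and the median log2 fold change was 0.51. The 3 genes called lower in that fit include ENSRNOG00000033697. A second one had 52.5, 60.8 and 74.5 CPM in 3w100 and 13.6 and 28.2 CPM in 5w100, after 175.1 to 280.7 CPM in 1w100. The remaining one had 61, 37 and 151 counts in 3w100 and 0 in both 5w100 libraries, which allows up to 3 counts in each for counting error only, after 3186 to 7890 counts in 1w100.

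A small group of genes, which includes the last one above, was all but lost from the stiff libraries by 5 weeks, and was low on soft too. There were 6 genes with at least 10 counts in every 3w100 library and at most 3 in both 5w100 libraries, and 0 genes with the opposite pattern. These limits were set after the data were seen. Summed over the 6 genes, counts were 161, 102 and 263 in 3w100 and 3 and 8 in 5w100. None of the 6 was called by edgeR. The same 6 genes summed to 4309 to 9650 counts in 1w100, of which 1 gene gave 3186 to 7890. The sums in 1w100 therefore rest largely on that gene. In 4 of the 6 genes every 3w100 count lay below every 1w100 count, so a fall before week 3 does not hold for all of them. On soft the 6 genes summed to 2640 to 6843 counts in 1w2, 31 to 175 in 3w2, and 15 and 22 in 5w2. In 3w100→2w2 they summed to 15 and 28, so low counts of these genes were not particular to the stiff surface. The genes were chosen by their counts on stiff, however. A single gene reached 10 and 15 counts in 5w2 and 8 and 12 in 3w100→2w2, above the limit of 3 that both 5w100 libraries met. In bulk samples, fewer cells of a type and less RNA of these genes per cell cannot be told apart. Markers of other cells could not be checked by identifier, and their part in this fall was not tested.

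The stiff change from 3 to 5 weeks was then described in genes that were chosen by a comparison of other libraries. Between 1w2 and 3w2, on the soft surface, edgeR called 1127 genes (8.03%), of which 523 rose and 604 fell. These lists were added after the data were seen, their fold changes use none of the 5 stiff libraries, although the shared filter and estimate of the spread do, and whether the libraries share animals is not given. The genes that rose on soft in the first interval were mostly higher on stiff in the second. Their median log2 fold change from 3w100 to 5w100 was 0.22 (quartiles 0.06 and 0.46), beside -0.01 over all 14034 genes, and 83.9% of them were above 0, beside 48.5%. At an unadjusted p below 0.05, 107 of the 523 (20.5%) were higher and 2 lower, where 2.98% of all genes were higher. In 206 of them (39.4%) both 5w100 libraries lay above all 3w100 libraries, beside 10.3% of all genes, and in 10 both lay below.

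The 604 genes that fell on soft went the other way. Many of them were tested only because the 1-week libraries passed the shared filter. Of the 604 genes, 333 passed the same filter on the 5 stiff libraries alone, and over those the median log2 fold change from 3 to 5 weeks was -0.25 (quartiles -0.56 and -0.08), with 58 lower (17.4%) and 1 higher at an unadjusted p below 0.05. In that fit of 5 libraries, 2.42% of the 13023 genes were lower and 2.57% higher. Of the 523 genes that rose on soft, 512 passed there, with a median of 0.21 and 110 higher (21.5%). Over all 604 genes in the shared fit the median was -0.42 (quartiles -1.82 and -0.10), and 15.4% were above 0. There, 95 (15.7%) were lower and 1 higher at an unadjusted p below 0.05, where 3.36% of all genes were lower. In 184 of them (30.5%) both 5w100 libraries lay below all 3w100 libraries, beside 10.7% of all genes, and in 17 both lay above. The 201 members fitted below a log2 fold change of -1 had a median level of 3.10 CPM in 1w100, 0.12 CPM in 3w100 and 0 in 5w100, so the size of the -0.42 depends on genes near 0 in both groups compared. No member of either list was called by edgeR.

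**Figure D4:**
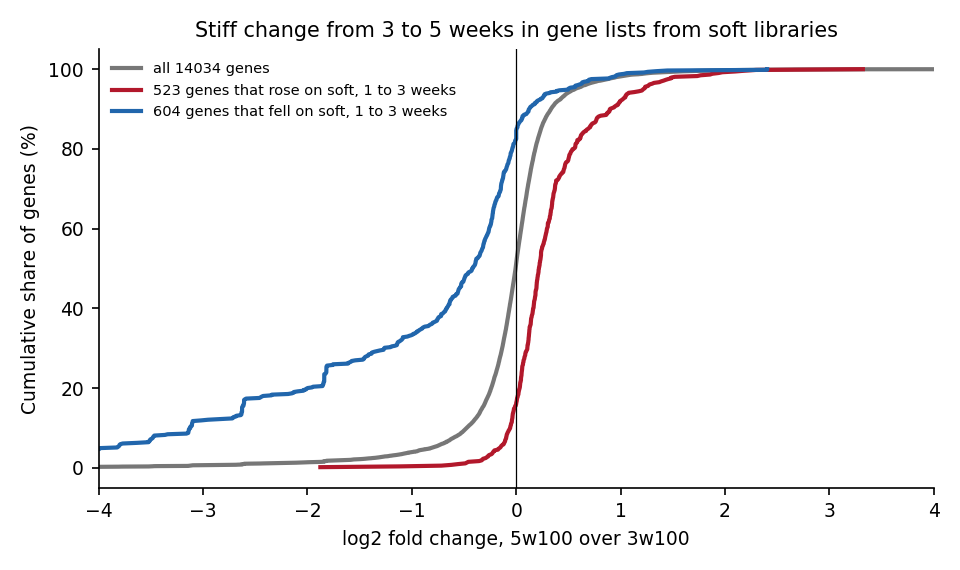
Cumulative share of genes (vertical axis, percent) by the log2 fold change of 5w100 over 3w100 (horizontal axis, drawn from -4 to 4) for all 14034 genes and for the genes called between 1w2 and 3w2. The curve of the 523 genes that rose on soft lies to the right of that of all genes, with a median of 0.22, and that of the 604 genes that fell lies to the left, with a median of -0.42, or -0.25 over the 333 that passed the filter on the 5 stiff libraries.

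The same lists are given for the first interval on stiff. From 1w100 to 3w100 the median log2 fold change was 0.64 for the 523 genes and -2.28 for the 604. As a share of all counts in a library, the 523 genes held 4.23 to 4.78% in 1w100. They held 7.85, 7.28 and 6.85% in 3w100 and 8.73 and 8.90% in 5w100, so both 5-week libraries lay above the 3-week ones. The 604 genes held 3.28 to 4.0% in 1w100, then 2.05, 2.35 and 2.34% in 3w100 and 1.88 and 1.87% in 5w100, again without overlap. Each of the 6 pairs of a 3w100 and a 5w100 library gave the same direction: the median log2 difference of the 523 genes was 0.13 to 0.28 and that of the 604 genes -0.18 to -0.51. The largest differences of both lists involved 3w100 replicate 3. Without that library the medians were 0.19 and -0.30, and the genes at an unadjusted p below 0.05 in the direction of the list were 53 in place of 107 and 61 in place of 95. Without 5w100 replicate 1 they were 69 and 51, with medians of 0.20 and -0.37. With no 5w100 replicate 2 the median of the 604 genes was -0.62.

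**Figure D5:**
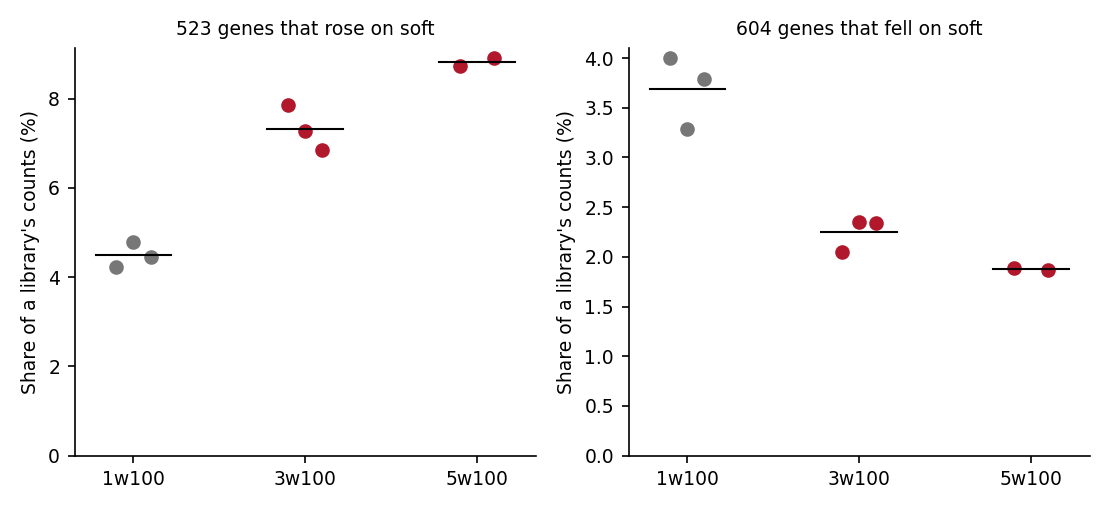
Share of each library's counts, in percent (vertical axes, starting at 0), held by the 523 genes that rose and the 604 genes that fell between 1w2 and 3w2, in the stiff groups; points are libraries, red for 3w100 and 5w100, and lines are means. The first list holds more in 5w100 (8.73 and 8.90%) than in any 3w100 library, and the second holds less (1.88 and 1.87%).

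On the soft surface the interval from 3 to 5 weeks also gave 0 called genes by edgeR, with 1315 genes (9.37%) at an unadjusted p below 0.05, 369 higher and 946 lower, and 110 genes called by DESeq2. Whether the change on stiff differed from that on soft was tested as an interaction in the same model. edgeR called 0 genes, DESeq2 called 0, and 404 genes (2.88%) had an unadjusted edgeR p below 0.05, 277 of them with a more positive change on stiff. A p that misses the threshold does not show that the surfaces act alike. For ENSRNOG00000009033, for example, the log2 fold change was 1.29 ± 0.24 (SE) on stiff and 0.30 ± 0.25 on soft, and the difference of 0.99 ± 0.35 had an adjusted p of 1.00 by edgeR. That gene was chosen by its stiff change, which favors a large difference, so its values show only how wide the errors are.

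Genes at an unadjusted p below 0.05 on soft between 3 and 5 weeks were uneven between the 2 stiff libraries of 5 weeks. The 369 genes higher on soft had a median stiff log2 fold change of 0.15. At an unadjusted p below 0.05, 73 of them (19.8%) were higher on stiff and 3 lower, beside 2.98% higher over all genes. Both the list and these p-values use the spread shared by all 20 libraries. In the edgeR fit of only the 5 stiff libraries, 357 of the genes passed the filter. There 38 (10.6%) were higher and 2 lower, beside 2.57% higher over all genes. Their median log2 difference from the 3w100 libraries was 0.24, 0.23 and 0.26 in 5w100 replicate 1. In 5w100 replicate 2 it was only 0.04, 0.05 and 0.06. The 946 genes lower on soft had a median of -0.26, with 4 higher and 132 lower (14.0%), beside 3.36% lower over all genes. For the 946 genes the median log2 difference from the 3w100 libraries was -0.45, -0.51 and -0.59 in 5w100 replicate 1, and 0, -0.04 and -0.10 in 5w100 replicate 2. Their share of the counts was 3.19 to 3.52% in 3w100, 2.20% in 5w100 replicate 1 and 3.24% in 5w100 replicate 2. The lower level of these genes on stiff was therefore carried by 1 of 2 libraries. Over all genes, 5w100 replicate 1 was also nearer to the 5w2 libraries, at distances of 72.8 and 91.0, than 5w100 replicate 2 was, at 118.8 and 120.4. Whether same-numbered soft and stiff libraries share an animal is not given, and its part in these values was not tested.

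Cells moved from stiff to soft after week 3 were compared over the same 2 weeks. Between 3w100 and 3w100→2w2 edgeR called 0 genes, with 639 (4.55%) at an unadjusted p below 0.05, DESeq2 called 4, and the SD of the log2 fold changes was 0.57, beside 0.58 for 5w100. Since both comparisons share the 3w100 libraries, their values are set side by side only. The log2 fold changes were 0.58 and, after the switch, 0.47 for ENSRNOG00000067317, and 1.29 and 1.07 for ENSRNOG00000009033. They were -1.31 and -1.30 for ENSRNOG00000032150, and -0.74 and -0.68 for ENSRNOG00000033697. The 523 genes that rose on soft in the first interval had a median of 0.22 in 5w100 and 0.18 in 3w100→2w2, and the 604 that fell had -0.42 and -0.36. The distance between 5w100 and 3w100→2w2 libraries with one replicate number was 40.4 and 39.6, and with different numbers 89.2 and 87.7. From 3w100 to 5w100, the same-numbered libraries were 67.6 and 56.8 apart, and the 4 other pairs 73.2 to 89.8.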

How the data were processed

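Per the labels, mRNA libraries were made with a stranded kit. The authors trimmed reads with TrimGalore!, checked them with FastQC, mapped them with HISAT2 to rat build rn7 and counted them per gene with featureCounts. Strand setting and versions were not stated in those sources, which leaves overlapping genes and paralogs uncertain. The deposited values are raw counts per Ensembl gene, without normalization, in 30560 rows, 0 of which name no gene. Totals over all 20 libraries were 16127907 to 24139128. Samples were grouped by their labels.

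Tests used edgeR 4.0.16 under R 4.3.3. Libraries were scaled by TMM, low genes removed by filterByExpr (minimum count 10, total 15), and all 20 libraries fitted together as 8 groups, with no block, by quasi-likelihood, with Benjamini-Hochberg adjustment at 0.05. DESeq2 1.42.0 was an alternative. The others were RLE factors, other filters on low counts, fits on only the groups compared, the replicate number as a block, and leaving out each library. Log2 CPM used a prior count of 2. The standard error is the size of the fold change over the root of the quasi-likelihood F. The fits were tested on simulated data. The comparison and the lists were chosen with earlier results of these data known. Identifiers found in the RefSeq gene table numbered 0 of 30560. The planned gene lists by symbol, cell type markers and promoter motifs were therefore not used here, no sequence is printed, and the rule for named genes was applied without its requirement of a symbol: the 2 genes of lowest unadjusted p in each direction, with at least 5 CPM in the higher group and libraries that do not overlap.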

Additional observations from a re-analysis of the deposited data

How the results depend on the processing

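The count of 0 called genes between 3w100 and 5w100 stayed at 0 with RLE factors, no filter, a filter on a mean of 10 counts, and edgeR on only the groups compared. DESeq2 called 17 genes on all 8 groups and 43 on only the groups compared, and 7 were shared, 41.2% of the former and 16.3% of the latter. Leaving out a library gave 0 to 1 called genes, the 1 gene appearing without 3w100 replicate 2. The 889 genes at an unadjusted p below 0.05 ranged from 505, without 3w100 replicate 3, to 1604, without 5w100 replicate 2, and were 650 to 941 over the unblocked fits that kept all 5 libraries. A lone 5w100 library took its spread from the remaining groups. The 4 named genes kept their direction in every alternative run. DESeq2 was the only alternative under which any of them passed the threshold, and adjusted p ranged from 0.000262 to 1.

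Replicate numbers had 2 pairs between 3w100 and 5w100, too few on their own to establish pairing. From 1w2 to 1w100, same-numbered libraries were 35.7, 46.2 and 39.7 apart, and other pairs 57.3 to 81.6. From 5w100 to 3w100→2w2 they were 40.4 and 39.6 apart, and other pairs 89.2 and 87.7. By contrast, 3w2 replicate 2 was 93.1 from 3w100 replicate 2 and 76.7 from 3w100 replicate 1. What a shared number marks is not stated, and the main fit has no term for it. The difference between replicates 1 and 2 correlated across genes with r = 0.46 between the groups, a hint from the data. With the number as a block over all 20 libraries 1 gene was called (adjusted p 0.0166 by edgeR), at 124.3, 156.7 and 122.2 CPM in 3w100 and 175.0 and 222.9 CPM in 5w100, and it was not the gene called without 3w100 replicate 2. With the block on only the groups compared, without replicate 3, 0 passed the threshold, with 543 at an unadjusted p below 0.05. With the block on all libraries there were 1218.

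From 3w2 to 5w2, DESeq2 called 110 genes on all groups and 173 on only the groups compared, the block over all libraries called 1, an unadjusted threshold gave 1315, and leaving out a library gave 0 to 1. For the difference of the stiff and soft changes, DESeq2 on only the groups compared called 2, 404 had an unadjusted p below 0.05, and every other setting gave 0. For the difference of the intervals DESeq2 called 16. The 1180 genes between 1w100 and 3w100 were 1156 with RLE factors and 1511 by DESeq2. The median of the 604 genes that fell on soft was -0.25 in edgeR on only the groups compared, where 333 of them passed the filter, and -0.24 with the block there, where 324 did. With 2 libraries at 5 weeks, standard errors at low counts limit what could be called.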
